A study of Mus musculus with 12 samples.

Results

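S100 proteins and annexins are small calcium-responsive proteins that often work together. An S100 protein carries a pair of calcium-binding EF-hand loops, works mostly as a dimer and binds target proteins when calcium rises. Annexins bind negatively charged membrane lipids in the presence of calcium, and several of them hold an S100 dimer at the membrane. In liver, hepatocytes, bile duct cells, resident macrophages and incoming leukocytes each carry different members.

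The 10 genes described here are 6 S100 genes (S100a4, S100a6, S100a8, S100a9, S100a10 and S100a11) and 4 annexins (Anxa1, Anxa2, Anxa3 and Anxa5), of the 27022 genes of the count table. They were chosen by symbol after the counts in both kits and the diet differences of these libraries were known. Their diet differences and kit ratios are therefore given as a description, and nothing is read from how many of them passed a threshold. Liver RNA came from 6 female SJL/J mice of 11 weeks, 3 kept on an AIN-93G control diet with 50 ppm iron and 3 moved to an AIN-93G iron-loaded diet with 2% carbonyl iron at 6 weeks of age. All mice were fasted before collection and their livers were flushed with saline, and the RNA came from a piece of the large lobe. Each diet was fed to 1 cage of 4 mice, so diet and cage cannot be told apart. The same RNA of each mouse went into 1 Trad-KAPA library, which reads fragments from along the whole transcript, and 1 3’-LEXO library, which reads near the 3′ end of the transcript. Mice are named control 1 to 3 and iron-loaded 1 to 3 in both kits.

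The Trad-KAPA libraries held 13834682 to 16553616 counts and the 3’-LEXO libraries 10724672 to 14104236 counts. Levels are given as CPM, or counts per 1000000 counts of the library. Summed over 5 hepatocyte markers, the level was 115455 to 154594 CPM in Trad-KAPA and 45118 to 69940 CPM in 3’-LEXO, and iron-loaded mouse 1 had the lowest sum in both kits. In bulk liver, fewer cells of a type and less RNA per cell cannot be told apart. Within each kit, edgeR's quasi-likelihood test compared the 3 libraries of one diet with the 3 of the other over all genes that passed the expression filter, with Benjamini-Hochberg adjustment. A gene was called at an adjusted p below 0.05, and a log2 fold change is of iron-loaded over control and is given with its standard error (SE).

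By GENCODE M21 on GRCm38, all 6 S100 genes are protein-coding genes of chromosome 3: S100a4 (ENSMUSG00000001020, chr3:90603771-90606045), S100a6 (ENSMUSG00000001025, chr3:90612882-90624181), S100a8 (ENSMUSG00000056054, chr3:90668978-90670035), S100a9 (ENSMUSG00000056071, chr3:90692632-90695721), S100a11 (ENSMUSG00000027907, chr3:93520488-93526287) and S100a10 (ENSMUSG00000041959, chr3:93555080-93564643). Of the annexins, Anxa5 (ENSMUSG00000027712, chr3:36448923-36475894) is on the same chromosome, and Anxa3 (ENSMUSG00000029484, chr5:96793339-96845966), Anxa2 (ENSMUSG00000032231, chr9:69453620-69491795) and Anxa1 (ENSMUSG00000024659, chr19:20373428-20390944) are elsewhere. Anxa3 shares 112 exon bases (3.07%) with Gm42603 on its own strand, and Anxa2 shares 98 (2.63%) with Gm16144 on the opposite strand. Where these bases lie in the transcripts was not examined, so how much of their counts is uncertain is not known.

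The coding bases of the second EF-hand loop are shown because this loop holds calcium with its side chains, and because they set S100a10 apart from the other members. The loops were found in the GENCODE M21 coding sequences by the pattern of a canonical EF-hand loop, which matched 1 stretch in each of 5 genes. This pattern requires aspartate at loop position 1 and glutamate at position 12, and limits positions 3 and 5 to a few residues. In the 5 matched genes the residues at these positions were therefore constrained by the search. S100a10 had 0 matches, and the codons shown are those aligned to the S100a11 loop. Each run is 36 bases on the gene's own strand of GRCm38, and capitals mark the codons of loop positions 1, 3, 5 and 12.
S100a4, chr3:90605785-90605820, plus strand: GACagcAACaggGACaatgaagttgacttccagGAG
S100a6, chr3:90614233-90614268, plus strand: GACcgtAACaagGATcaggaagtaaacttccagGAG
S100a8, chr3:90669872-90669907, plus strand: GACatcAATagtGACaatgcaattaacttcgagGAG
S100a9, chr3:90692851-90692886, minus strand: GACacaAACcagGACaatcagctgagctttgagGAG
S100a11, chr3:93526037-93526072, plus strand: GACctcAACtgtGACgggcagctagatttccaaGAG
S100a10, chr3:93564288-93564323, plus strand: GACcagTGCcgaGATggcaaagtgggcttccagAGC
The capitals end in GAG, a glutamate codon, in the 5 genes matched by the pattern and in AGC, a serine codon, in S100a10, which is known as the S100 protein that does not respond to calcium. S100a4 and S100a8 shared 29 of the 36 bases and S100a4 and S100a6 shared 28, while S100a10 shared 14 to 19 with each of the others. Over the whole encoded protein, S100a4 and S100a6 were the most alike pair, at 50.6% identity of the shorter one, and S100a6 and S100a10 the least alike, at 25.8%.

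In control livers, S100a10 was the most abundant of the 10 genes in both kits. In Trad-KAPA, where levels between genes are compared per kilobase of exon, S100a10 stood at 55.1 ± 7.73 CPM per kb (SD, n = 3), followed by Anxa5 at 10.8 ± 1.71 and Anxa2 at 2.64 ± 0.587. S100a11, S100a9, S100a8, Anxa1, S100a6 and Anxa3 followed in that order, and from Anxa2 to Anxa3 each gene overlapped the next over the control mice. S100a4 was last, at 0.152 ± 0.0676 CPM per kb. The exon length merges the exons of all annotated transcripts of a gene. It can exceed the length of the transcripts present, so the Trad-KAPA order depends on it. In 3’-LEXO, which gives about 1 tag per transcript and so is ordered by CPM without a length, S100a10 stood at 142 ± 20.99 CPM, Anxa2 at 17.7 ± 5.28 and Anxa5 at 14.1 ± 1.88, and the ranges of Anxa2 and Anxa5 overlapped. S100a6, S100a4, S100a8, S100a9 and Anxa3 lay between 7.78 and 4.73 CPM with neighbours that overlapped, Anxa1 followed at 2.69 ± 0.439 CPM and S100a11 was last at 1.07 ± 0.430 CPM.

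**Figure D1:**
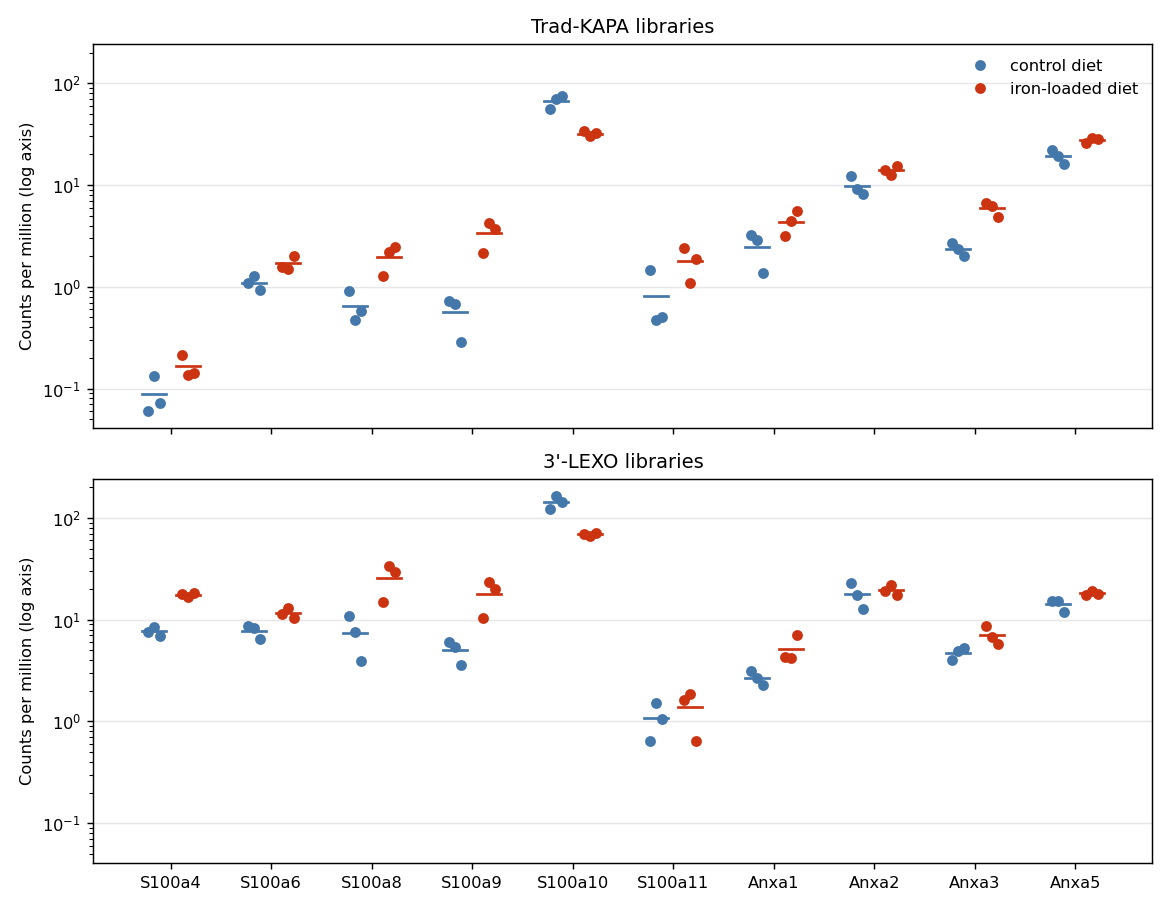
Level of each gene in CPM (log axis) in the 6 Trad-KAPA libraries (top) and the 6 3’-LEXO libraries (bottom), with 1 point per mouse and a bar at the mean of each diet. S100a10 is lower in the 3 iron-loaded mice in both kits, and S100a4 lies near 0.1 CPM in Trad-KAPA, where no library had more than 3 counts, but above 6 CPM in 3’-LEXO.

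Of the 9 genes that passed the expression filter in Trad-KAPA, 5 were called, beside 17.1% of all genes tested. The 4 called higher with iron (S100a8, S100a9, Anxa3 and Anxa5) stand beside 8.77% of all genes called higher, and the 1 called lower (S100a10) beside 8.37% called lower. S100a4 was not tested in Trad-KAPA. All 10 genes passed the filter in 3’-LEXO and 4 were called, beside 6.10% of all genes tested. S100a4, S100a8 and S100a9 were called higher there, beside 3.17% called higher, and S100a10 was called lower, beside 2.92% called lower. None of these counts is a result about the families, since the genes were picked with the diet differences known.

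S100a8 and S100a9 form calprotectin, a zinc- and manganese-binding complex that makes up much of the cytosolic protein of neutrophils and signals through Toll-like receptor 4 and RAGE. S100a9 had 0.725, 0.670 and 0.289 CPM in control mice 1, 2 and 3 in Trad-KAPA, and 2.14, 4.24 and 3.67 CPM in iron-loaded mice 1, 2 and 3. In 3’-LEXO it had 6.00, 5.44 and 3.62 CPM on the control diet and 10.3, 23.4 and 20.2 CPM on the iron-loaded diet. The groups did not overlap in either kit, and iron-loaded mouse 1 was the lowest of its group in both. The fitted log2 fold change was 2.48 ± 0.41 (5.59-fold, adjusted p = 0.00847) in Trad-KAPA and 1.79 ± 0.32 (3.46-fold, adjusted p = 0.0143) in 3’-LEXO. The 3’-LEXO call was lost without control mouse 2 (adjusted p = 0.0631) and without control mouse 3 (adjusted p = 0.0723).

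S100a8 had 0.906, 0.469 and 0.578 CPM in the control mice and 1.29, 2.19 and 2.44 CPM in the iron-loaded mice in Trad-KAPA. In 3’-LEXO the levels were 10.9, 7.51 and 3.90 CPM on the control diet and 14.9, 33.3 and 29.5 CPM on the iron-loaded diet. As for S100a9, the groups did not overlap and iron-loaded mouse 1 lay closest to the controls. The log2 fold change was 1.51 ± 0.39 (2.85-fold, adjusted p = 0.0336) in Trad-KAPA and 1.75 ± 0.38 (3.37-fold, adjusted p = 0.0282) in 3’-LEXO. Trad-KAPA gave it only 7 to 34 counts per library, and its call there was lost without each mouse in turn other than iron-loaded mouse 1, with an adjusted p from 0.0558 to 0.109. In 3’-LEXO the call was lost without control mouse 2 or 3 or iron-loaded mouse 2 or 3, with an adjusted p from 0.0529 to 0.106.

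Of 11 neutrophil markers, 10 had a higher mean in iron-loaded mice in Trad-KAPA and 8 in 3’-LEXO. Those 10 include Ly6g and Elane, which had at most 2 counts in any Trad-KAPA library. For Camp, Ngp and Ltf, iron-loaded mouse 1 lay within or below the control range in both kits. Mpo, the myeloperoxidase of neutrophil granules, had a lower mean in both kits (0.474 CPM in control against 0.212 CPM in iron-loaded mice in Trad-KAPA, and 0.309 against 0.215 CPM in 3’-LEXO), and Elane and Ly6g had a lower mean in 3’-LEXO, all from at most 11 counts per library. Mpo, Elane, Camp, Ngp and Ltf are named after their values were seen. Summed over the 11 neutrophil markers, the level was 2.60 to 6.46 CPM in control and 8.78 to 12.3 CPM in iron-loaded mice in Trad-KAPA, without overlap. In 3’-LEXO the sums were 2.41 to 6.43 CPM and 6.14 to 13.99 CPM, which overlapped, since iron-loaded mouse 1 had 6.14 CPM and control mouse 1 had 6.43 CPM. Few of these markers could be tested, 2 of 11 in Trad-KAPA and 3 of 11 in 3’-LEXO. The only one called was Csf3r, the receptor of the neutrophil growth factor G-CSF, with a log2 fold change of 1.08 ± 0.24 (adjusted p = 0.0208) in Trad-KAPA. In that kit 8.77% of all genes tested were called higher. Without Csf3r the sums overlapped in both kits, at 1.16 to 3.87 CPM and 3.43 to 7.12 CPM in Trad-KAPA and 2.41 to 6.43 CPM and 5.75 to 13.1 CPM in 3’-LEXO. The lowest and highest control sums in 3’-LEXO were the same with and without Csf3r, so it had no counts in those libraries. The defining marker Ly6g had 2 counts over the 6 Trad-KAPA libraries and 1 count over the 6 3’-LEXO libraries. S100a8 and S100a9 together summed to 0.867 to 1.63 CPM and 3.43 to 6.42 CPM in Trad-KAPA, and to 7.52 to 16.9 CPM and 25.2 to 56.7 CPM in 3’-LEXO, on the control and iron-loaded diets. The part of the neutrophil markers in the levels of S100a8 and S100a9 was not tested.

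**Figure D2:**
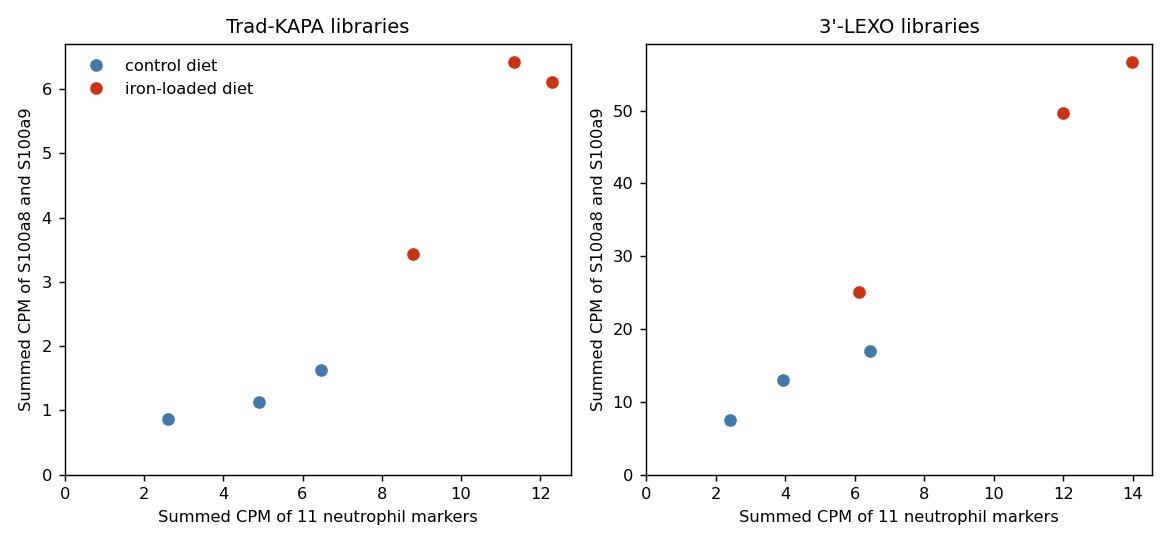
Summed CPM of S100a8 and S100a9 (vertical axis) against the summed CPM of 11 neutrophil markers (horizontal axis), with 1 point per library, Trad-KAPA on the left and 3’-LEXO on the right. Iron-loaded mice 2 and 3 lie at the upper right in both kits, and the marker sum of iron-loaded mouse 1 in 3’-LEXO (6.14 CPM) falls within the control range.

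Upstream of its RefSeq start site (GRCm38.p6), S100a8 has a TATA box, as does S100a4, while S100a9 has none in the 250 bases before its start. The stretches from 40 to 11 bases before the start are shown for these 3 genes, 5′ to 3′ on the strand of the gene, since all of them were called higher with iron in 3’-LEXO, with TATAAA in capitals.
S100a4, chr3:90603730-90603759, plus strand: ctggcagggTATAAAtaggtcagattgttg
S100a8, chr3:90669031-90669060, plus strand: agctttcctcTATAAAagcagctgacactt
S100a9, chr3:90695732-90695761, minus strand: atcttccccgagataaccatgtatctaaca
RefSeq promoters were matched for 8 of the 10 genes. Searched on both strands over the 250 bases before the start, TATAAA occurred in 4 of them (S100a4, S100a8, Anxa1 and Anxa2) and in 12.4% of 32851 start sites of all genes. TGANTCA, the AP-1 motif, occurred in S100a11 and Anxa2 and in 6.75% of all start sites. TTGCNNAA, a C/EBP-type motif, occurred in S100a9 and Anxa1 and in 9.56% of all, and TGACNNNGC, the core of the antioxidant response element, in 0 of the 8 and in 10.2% of all. No motif match overlapped another, and a match describes the letters only.

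S100a10, also called p11, forms a tetramer with annexin A2 at the cell surface, where it binds plasminogen and its activator. It was lower in iron-loaded livers. In Trad-KAPA S100a10 had 56.2, 69.9 and 74.2 CPM in control mice 1, 2 and 3 and 33.6, 30.0 and 32.2 CPM in iron-loaded mice 1, 2 and 3. The 3’-LEXO levels were 122, 164 and 142 CPM and 70.2, 66.2 and 70.9 CPM. Every iron-loaded mouse lay below every control mouse in both kits, and the iron-loaded mice differed by less than the control mice did. The fitted log2 fold change was -1.14 ± 0.13 (0.454-fold, adjusted p = 0.00326) in Trad-KAPA and -1.10 ± 0.15 (0.466-fold, adjusted p = 0.00431) in 3’-LEXO, and both calls were kept under each of the 12 alternatives run in each kit.

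Anxa2, which encodes the annexin partner of S100a10, did not pass the test in either kit. Its Trad-KAPA levels were 12.3, 9.04 and 8.17 CPM in control and 13.9, 12.4 and 15.4 CPM in iron-loaded mice, with a log2 fold change of 0.43 ± 0.17 (adjusted p = 0.110). Its 3’-LEXO levels were 23.2, 17.3 and 12.6 CPM and 19.2, 21.8 and 17.3 CPM, so the groups overlapped, with a log2 fold change of 0.08 ± 0.21 (adjusted p = 0.845). The sign of this 3’-LEXO value turned without control mouse 3 (-0.10) and without iron-loaded mouse 2 (-0.038). Of 9 genes for receptors and partners of these proteins, 6 were tested in Trad-KAPA with 1 called and 5 in 3’-LEXO with 0 called. Over all genes tested, 17.1% and 6.10% were called. The median log2 fold changes of the receptors and partners were 0.17 and -0.10, beside 0.02 and 0.01 over all genes tested. Plaur, the urokinase receptor of the plasminogen pathway, was too low to test in 3’-LEXO and rose by 1.68 ± 0.31 on the log2 scale (adjusted p = 0.0121) in Trad-KAPA. Plg, plasminogen itself and a secreted product of hepatocytes, had log2 fold changes of -0.06 ± 0.13 (adjusted p = 0.770) and -0.07 ± 0.16 (adjusted p = 0.819) in Trad-KAPA and 3’-LEXO. Ahnak, a large scaffold protein bound by S100a10 and annexin A2, had log2 fold changes of 0.11 ± 0.16 (adjusted p = 0.669) and -0.39 ± 0.14 (adjusted p = 0.124). Fpr1, a formyl peptide receptor of leukocytes, had log2 fold changes of -0.24 ± 0.29 (adjusted p = 0.600) and -0.82 ± 0.41 (adjusted p = 0.247).

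S100a4, a regulator of myosin and cell movement found in fibroblasts and macrophages, was hardly read by Trad-KAPA. It had 1, 2 and 1 counts in the control mice and 3, 2 and 2 counts in the iron-loaded mice, all at or under 3 counts, so that no diet fold can be given there. The same RNA gave 105, 119 and 98 counts (7.50, 8.52 and 6.95 CPM) in control and 235, 177 and 201 counts (18.0, 16.5 and 18.3 CPM) in iron-loaded mice in 3’-LEXO. These groups did not overlap, and the log2 fold change was 1.14 ± 0.15 (2.21-fold, adjusted p = 0.00418), a call kept under each of the 12 alternatives. The exons of S100a4 cover 584 bases, of which 302 (51.7%) are also exons of Gm42674 on the same strand in GENCODE M21. The last 160 bases at the 3′ end are unshared. The annotation and strand setting used for counting are not given in the sources used here, so the Trad-KAPA count of S100a4 is uncertain, and the part of this overlap in it was not tested.

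S100a6, or calcyclin, binds several annexins and is found in epithelial cells and fibroblasts. In Trad-KAPA it had 1.09, 1.27 and 0.940 CPM in control and 1.57, 1.503 and 2.01 CPM in iron-loaded mice. In 3’-LEXO the levels were 8.65, 8.30 and 6.38 CPM and 11.3, 13.1 and 10.4 CPM. The groups were apart in both kits, but neither difference passed the threshold, with log2 fold changes of 0.55 ± 0.28 (adjusted p = 0.200) and 0.52 ± 0.18 (adjusted p = 0.113).

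S100a11, a partner of annexin A1, was read at few counts in both kits. Its levels were 1.45, 0.469 and 0.506 CPM in control and 2.43, 1.09 and 1.87 CPM in iron-loaded mice in Trad-KAPA, from 7 to 34 counts per library. In 3’-LEXO, where it had 7 to 21 counts, they were 0.643, 1.503 and 1.06 CPM and 1.61, 1.86 and 0.636 CPM. The groups overlapped in both kits, and the log2 fold changes were 1.04 ± 0.48 (adjusted p = 0.162) and 0.30 ± 0.47 (adjusted p = 0.732). Without control mouse 1, the highest of the controls, the Trad-KAPA value was 1.77 (adjusted p = 0.0604). No diet difference of S100a11 was detectable at this depth.

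Anxa3, a phospholipid-binding annexin also found in neutrophils, had 2.72, 2.34 and 2.02 CPM in control and 6.71, 6.22 and 4.89 CPM in iron-loaded mice in Trad-KAPA. In 3’-LEXO it had 4.00, 4.87 and 5.32 CPM and 8.59, 6.81 and 5.73 CPM. The groups did not overlap in either kit, though in 3’-LEXO the lowest iron-loaded mouse lay close to the highest control mouse. Anxa3 rose by 1.25 ± 0.20 on the log2 scale in Trad-KAPA (2.39-fold, adjusted p = 0.00793), a call kept under all 12 alternatives. In 3’-LEXO its log2 fold change was 0.51 ± 0.22 (adjusted p = 0.186).

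Anxa5, which binds the phosphatidylserine exposed on dying cells, had 22.1, 19.3 and 16.05 CPM in control and 25.6, 29.1 and 28.5 CPM in iron-loaded mice in Trad-KAPA. In 3’-LEXO it had 15.4, 15.1 and 11.98 CPM and 17.6, 19.0 and 17.7 CPM. Again the iron-loaded mice lay above the control mice in both kits. The log2 fold changes were 0.47 ± 0.13 (1.39-fold, adjusted p = 0.0431) in Trad-KAPA and 0.30 ± 0.15 (adjusted p = 0.246) in 3’-LEXO. The Trad-KAPA call was lost without each mouse in turn other than iron-loaded mouse 1, with an adjusted p from 0.0540 to 0.126.

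Anxa1, an anti-inflammatory annexin that acts through formyl peptide receptors, had 3.20, 2.88 and 1.37 CPM in control and 3.14, 4.44 and 5.53 CPM in iron-loaded mice in Trad-KAPA. In 3’-LEXO the levels were 3.14, 2.65 and 2.27 CPM and 4.29, 4.196 and 6.999 CPM. The groups overlapped in Trad-KAPA only through iron-loaded mouse 1 and control mouse 1. The log2 fold changes were 0.75 ± 0.33 (adjusted p = 0.152) and 0.88 ± 0.28 (adjusted p = 0.0894), so neither passed the threshold.

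**Figure D3:**
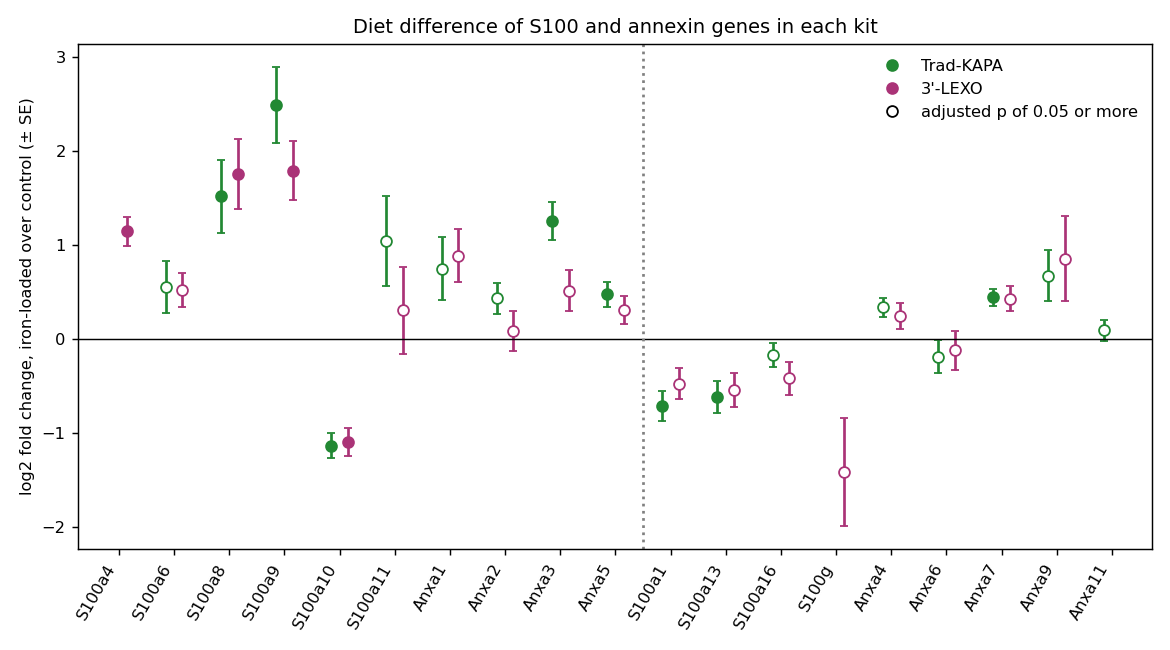
Log2 fold change of iron-loaded over control with its SE (vertical axis) for the 10 genes, left of the dotted line, and for the other S100 genes and annexins that passed the expression filter, right of it. Green points are Trad-KAPA and purple points 3’-LEXO (n = 3 per diet), and open points have an adjusted p of 0.05 or more: S100a8, S100a9 and S100a10 are filled in both kits.

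An interaction term of diet by kit, fitted to all 12 libraries, tested whether the diet difference itself was unlike between the kits. Of the 10 genes 0 were called, beside 0% of the 14384 genes tested. At an unadjusted p under 0.05 edgeR gave 402 genes (2.79%) and DESeq2 gave 390 of 27011, which also called 0. These fits do not use that each mouse was read by both kits. With the mouse as a block, edgeR gave 1026 genes (7.13%) and 5 calls, and 0 of the 10 genes were called. Anxa3 had the smallest p of the 10 genes, with a log2 fold change lower by 0.74 ± 0.29 in 3’-LEXO than in Trad-KAPA (unadjusted p = 0.0248). For S100a10 the difference of the log2 fold changes was 0.04 ± 0.19 (unadjusted p = 0.848), and for S100a9 the 3’-LEXO value was lower by 0.69 ± 0.57 (unadjusted p = 0.245). With the mouse as a block, Anxa3 and S100a9 were under an unadjusted p of 0.05, with 3’-LEXO values lower by 0.73 ± 0.27 (unadjusted p = 0.0149, adjusted p = 0.538) and by 0.72 ± 0.32 (unadjusted p = 0.0359, adjusted p = 0.663). The calls of Anxa3 and Anxa5 in Trad-KAPA alone are therefore not shown to be particular to that kit.

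The kits also differed in how much of each gene they read. The ratio of 3’-LEXO to Trad-KAPA was taken in each mouse as log2 of (CPM + 0.5), which draws the ratio of low genes toward 0. S100a4 had a mean log2 ratio of 4.28 ± 0.54 (SD, n = 6 mice), and its pooled counts of 935 and 11 gave 97.2 times more CPM in 3’-LEXO (95% exact binomial interval 54.1 to 195, counting error only). S100a8 followed at 3.04 ± 0.55, S100a6 at 2.41 ± 0.23, S100a9 at 2.30 ± 0.14 and S100a10 at 1.09 ± 0.10, all above 0 in 6 of 6 mice. Among all 14223 genes that passed the filter in either kit, 99.8% had a lower mean ratio than S100a4, 98.8% than S100a8, 96.9% than S100a6 and 96.5% than S100a9. S100a11 was the exception among the S100 genes described, at -0.01 ± 0.87 and above 0 in 3 of 6 mice.

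The annexins lay nearer to equal reading. Anxa2 had a mean log2 ratio of 0.63 ± 0.29, Anxa3 of 0.54 ± 0.43 and Anxa1 of 0.18 ± 0.28. Anxa5 was lower in 3’-LEXO, at -0.51 ± 0.12 and below 0 in all 6 mice. Anxa11, an annexin that is no member of the 10, was the opposite of S100a4, with 1799 counts over the Trad-KAPA libraries and 1 count over the 3’-LEXO libraries. This is a ratio of 1573 in favour of Trad-KAPA (95% exact binomial interval 282 to 62167, counting error only). Anxa11 shares 113 exon bases (2.73%) with Anxa11os on the opposite strand. The strand setting used for counting is not given, and the part of this overlap in the counts of Anxa11 was not tested.

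**Figure D4:**
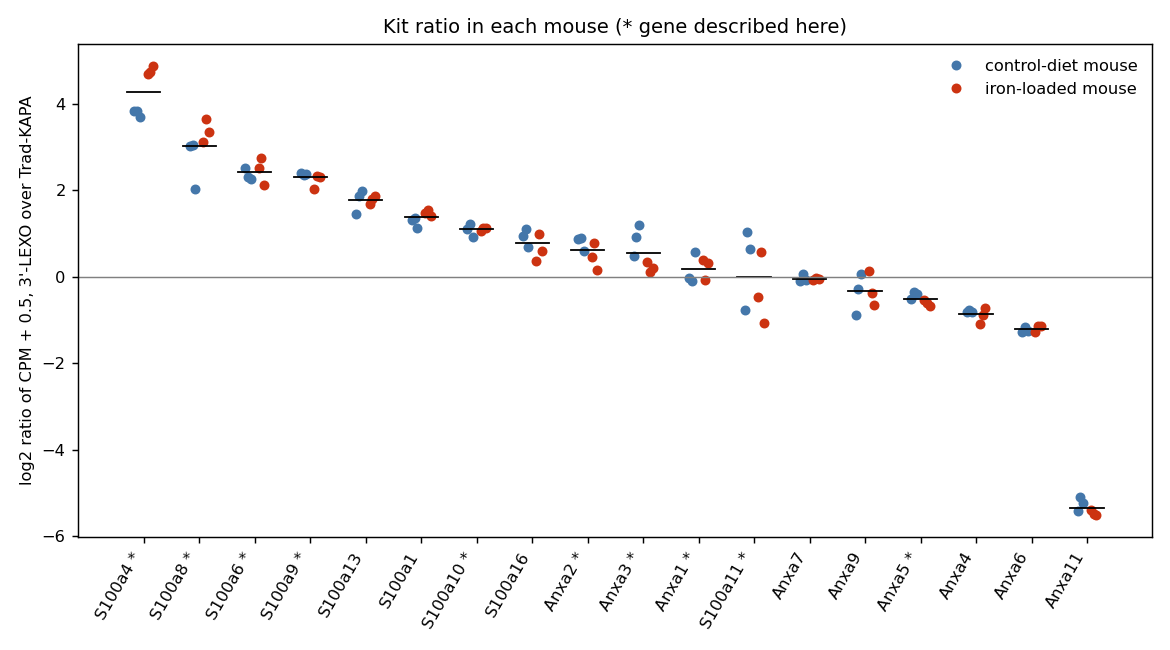
Log2 ratio of 3’-LEXO to Trad-KAPA, from CPM + 0.5 (vertical axis), in each of the 6 mice for the S100 genes and annexins with a mean of at least 1 CPM in either kit, in falling order of the mean (bar), with the genes described here starred. S100a4 stands highest at a mean of 4.28, and Anxa11 lowest at -5.35.

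The other S100 genes and annexins give the families' wider picture. Of 10 other S100 genes 7 had a row in the table, and the remaining ones were not analysed here. In Trad-KAPA 3 of them were tested, with 2 called lower, beside 8.37% of all genes tested called lower. In 3’-LEXO 4 were tested with 0 called, beside 6.10% of all genes tested called. The median log2 fold changes of these other S100 genes were -0.62 and -0.51, and 0 were above 0 in either kit. S100a1, a calcium sensor of muscle and liver, fell by 0.71 ± 0.16 on the log2 scale (adjusted p = 0.0221) in Trad-KAPA and had -0.48 ± 0.16 (adjusted p = 0.102) in 3’-LEXO. S100a13 fell by 0.62 ± 0.17 (adjusted p = 0.0421) in Trad-KAPA and had -0.55 ± 0.18 (adjusted p = 0.0966) in 3’-LEXO. S100a16 had -0.17 ± 0.12 (adjusted p = 0.353) and -0.42 ± 0.17 (adjusted p = 0.170).

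Of 8 other annexins 7 had a row. In Trad-KAPA 5 were tested with 1 called higher, beside 8.77% of all genes tested called higher. In 3’-LEXO 4 were tested with 0 called, beside 6.10% of all genes tested called. The median log2 fold changes of these other annexins were 0.33 and 0.34. Anxa7 rose by 0.44 ± 0.09 on the log2 scale (adjusted p = 0.0173) in Trad-KAPA and had 0.43 ± 0.13 (adjusted p = 0.0831) in 3’-LEXO. Anxa4 had 0.33 ± 0.10 (adjusted p = 0.0531) and 0.25 ± 0.14 (adjusted p = 0.300), and Anxa6 had -0.19 ± 0.18 (adjusted p = 0.478) and -0.12 ± 0.21 (adjusted p = 0.751). Anxa9 had 0.67 ± 0.27 (adjusted p = 0.124) and 0.85 ± 0.45 (adjusted p = 0.268), and Anxa11, read by Trad-KAPA only, had 0.09 ± 0.11 (adjusted p = 0.597).

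Along chromosome 3 the S100 genes lie in 2 groups, with a gap of 2.82 megabases between S100a9 and S100a11. In the first group S100a1, S100a13 and S100a16 at one end had log2 fold changes below 0 in both kits. S100a4, S100a6, S100a8 and S100a9 follow them, and each had a log2 fold change above 0 wherever it was tested. S100a11 and S100a10 are neighbours in the second group, and there S100a10 fell while S100a11 had values above 0 that did not pass the test.

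**Figure D5:**
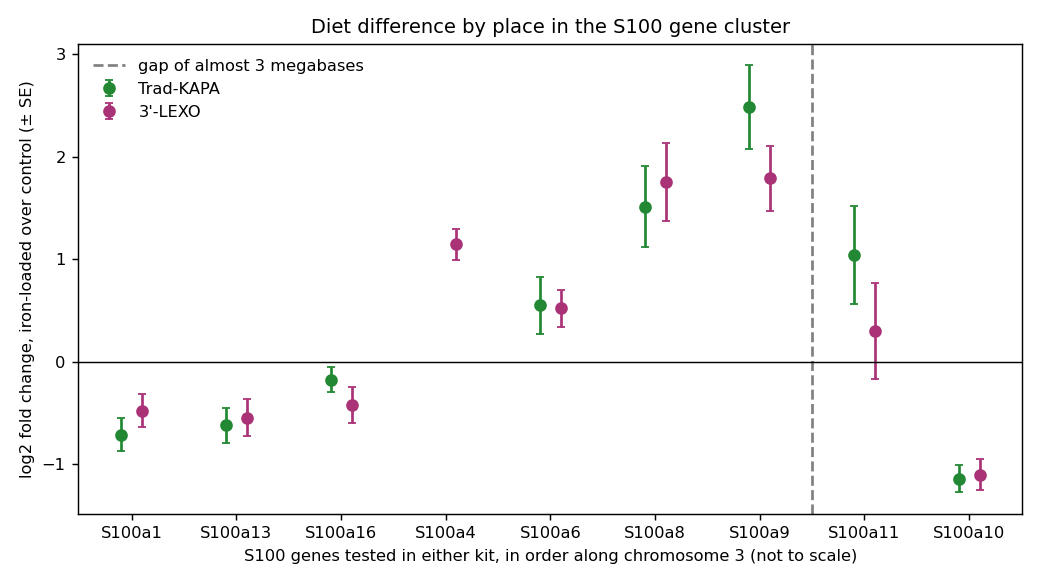
Log2 fold change of iron-loaded over control with its SE (vertical axis) for the S100 genes tested in either kit, placed in their order along chromosome 3 without scale, with Trad-KAPA in green and 3’-LEXO in purple. S100a1, S100a13 and S100a16 lie below 0, S100a4 to S100a9 above 0, and S100a10, after the dashed gap, at -1.14 and -1.10.

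Calls among the markers of other cell types stand beside 8.77% of all genes tested called higher and 8.37% called lower in Trad-KAPA. In 3’-LEXO these shares were 3.17% and 2.92%. Of 6 Kupffer cell markers 2 were called higher in Trad-KAPA and 1 was in 3’-LEXO, and their sums were 298 to 477 CPM in control and 539 to 586 CPM in iron-loaded mice in Trad-KAPA and 824 to 1073 CPM and 1083 to 1324 CPM in 3’-LEXO. Marco, a scavenger receptor of macrophages, rose by 3.10 ± 0.29 and 2.82 ± 0.33 on the log2 scale (adjusted p = 0.00143 and 0.00233). Without Marco, the Trad-KAPA sums were still apart as CPM (294 to 467 CPM and 485 to 491 CPM). The 3’-LEXO sums without it overlapped (808 to 1049 CPM and 996 to 1092 CPM). CPM leaves out the TMM factors of the fits, where a larger factor lowers the scaled level. Control mouse 1 and iron-loaded mouse 1 had Trad-KAPA factors of 1.00 and 1.07. For the full 3’-LEXO sums of control mouse 1 (1073 CPM) and iron-loaded mouse 2 (1083 CPM), the factors were 0.987 and 1.00. Both narrow gaps therefore depend on the scaling chosen.

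Of 6 monocyte markers 1 was called higher in each kit, Lyz2, with sums of 32.7 to 54.5 CPM and 72.4 to 84.5 CPM in Trad-KAPA and of 105 to 153 CPM and 199 to 236 CPM in 3’-LEXO. Without Lyz2 the sums overlapped in both kits, at 6.72 to 9.85 CPM and 9.57 to 14.3 CPM in Trad-KAPA and 29.8 to 46.5 CPM and 33.1 to 61.9 CPM in 3’-LEXO. Of 6 bile duct markers 1 was called higher in each kit, Spp1 (osteopontin, which macrophages also carry), with sums of 23.7 to 26.5 CPM and 33.5 to 39.0 CPM in Trad-KAPA and of 30.2 to 37.4 CPM and 43.4 to 44.2 CPM in 3’-LEXO. Without Spp1 the bile duct sums were lower with iron, at 6.04 to 6.56 CPM and 4.71 to 5.97 CPM in Trad-KAPA and 12.4 to 16.2 CPM and 9.91 to 11.5 CPM in 3’-LEXO. Sox9, a transcription factor of bile duct cells, had log2 fold changes of -0.57 ± 0.22 (adjusted p = 0.106) and -0.66 ± 0.18 (adjusted p = 0.0569), with every iron-loaded mouse below every control mouse. The sums without 1 marker were computed after the data were seen.

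Of 6 stellate cell and fibroblast markers 1 was called, Des, lower in Trad-KAPA, and the sums overlapped in both kits. Of 5 endothelial markers Lyve1 was called higher in both kits and Stab2 lower in 3’-LEXO. For the 5 mesothelial, 5 lymphocyte and 5 hepatocyte markers 0 were called in either kit by edgeR. Not all of them could be tested. Of the mesothelial markers 1 was tested in Trad-KAPA and 2 in 3’-LEXO. Of the lymphocyte markers 3 and 2 were tested, and of the hepatocyte markers all 5 in both kits. The sums of the endothelial and mesothelial markers overlapped in Trad-KAPA and were lower with iron in 3’-LEXO, and those of the lymphocyte and hepatocyte markers overlapped in both kits. The mesothelial sums were barely apart in 3’-LEXO, with a lowest control sum of 5.645 CPM and a highest iron-loaded sum of 5.636 CPM. The part of these cell types in the levels of the S100 genes and annexins was not tested.

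Likeness of pattern was measured by Pearson's r over the 12 libraries, from log2(CPM + 0.5) with each kit's mean removed, among 12229 genes that passed the filter in both kits. The libraries share mice in pairs and all carry the diet difference, so r is a description. S100a8 and S100a9 had r = 0.933 with each other, and S100a9 and S100a10 had r = -0.934. Outside the families, the genes most like S100a8 were Npl (0.972), Ctbs (0.965) and Ppib (0.960), those most like S100a11 were Slc35a4 (0.925), Glis3 (0.914) and Helb (0.888), and those most like Anxa2 were Ncf1 (0.938), Sorbs3 (0.918) and Dclre1a (0.912).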

How the data were processed

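Libraries were sequenced as single-end reads, and the authors mapped them with STAR 2.5.3a to mm10 (GRCm38) and counted, per gene, uniquely mapped reads on exons. The deposited values are these raw counts, not normalized or subsampled and with duplicates kept. The counting program, its strand setting and its annotation are not given in the sources used here. Symbols, exons and lengths came from GENCODE M21 (26940 of the 27022 identifiers matched).

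Counts were fitted within each kit with edgeR 4.0.16 (R 4.3.3, limma 3.58.1), with filterByExpr, TMM factors and a Benjamini-Hochberg threshold of 0.05 over all genes tested, and the interaction of diet and kit was fitted over 12 libraries. DESeq2 1.42.0, other filters and normalizations, replicate blocks and leaving out each mouse in turn were alternatives. The fits were tested on simulated data. Tables were made in Python 3.11.15 with pandas 2.3.3, scipy 1.17.1 and biopython 1.88. The text names all 10 genes, the other family members with the highest mean CPM, receptors with the highest CPM or a call, and up to 2 markers per cell type, and the 3 genes most like S100a8, S100a11 and Anxa2. More neutrophil markers were named after their values were seen. The genes and lists were chosen with earlier results of these data known.

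The replicate number in the labels was taken as the same mouse in both kits, since one RNA per mouse went into both. Deviations from the group means correlated between the kits at r = 0.393 to 0.733 for each of the 6 mice. In the interaction fit, 0 of the 10 genes were called with or without the mouse as a block. The diet tests within a kit cannot hold this block, since each mouse has 1 library there. Mice came from 1 cage per diet, so p-values measure the spread between these mice. At or under 3 counts in every library of both diets, no fold was given.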

Additional observations from a re-analysis of the deposited data

How the results depend on the processing

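In Trad-KAPA 5 of the genes described were called, and leaving out each mouse in turn gave 3 to 5. In 3’-LEXO 4 were called, and leaving out each mouse gave 2 to 4. These fits have fewer samples. Over all genes, leaving out each mouse gave 841 to 2803 calls in Trad-KAPA (2255 with all mice) and 199 to 871 in 3’-LEXO (811 with all mice). DESeq2 gave 1321 calls in 3’-LEXO and the fit without a filter on low counts gave 2040, and the cause was not tested. With the replicate number as a replicate block across diets, 3 of the genes described were called in Trad-KAPA, and over all genes 436 in 3’-LEXO. S100a8 was no longer called in either kit (adjusted p = 0.0646 and 0.0788), nor was Anxa5 in Trad-KAPA (adjusted p = 0.0733). Deviations of mice with the same number on both diets correlated at r = -0.122 to 0.0734, so they share only a number. The interaction of diet and kit gave 7 calls over all genes without a filter and 5 with the mouse as a replicate block.

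The log2 fold change of Anxa2 in 3’-LEXO was -0.10 without control mouse 3 and -0.038 without iron-loaded mouse 2, in a range from -0.10 to 0.31 over the fits without 1 mouse. The interaction estimate turned to 0.093 and 0.18 for S100a6 (without control mouse 1 and without iron-loaded mouse 3, range -0.19 to 0.18) and to -0.051 for S100a10 (without control mouse 3, range -0.051 to 0.11). Anxa1 passed in 3’-LEXO without a filter (adjusted p = 0.0375). With a pseudocount of 0.1, the log2 kit ratio was 5.72 for S100a4, 2.71 for S100a6 and 2.68 for S100a9. Without control mouse 1, S100a11 in Trad-KAPA moved from 1.04 to 1.77 on the log2 scale. Few counts limit the Trad-KAPA values of S100a6, S100a8, S100a9 and S100a11, at 4 to 62 counts per library, and S100a4 had 1 to 3.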
